A study of Gallus gallus and Dromaius novaehollandiae with 14 samples.

Results

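Epidermis from feather placodes of chicken embryos was compared with epidermis from reticulate scales of the chicken foot, using 4 of the 14 RNA sequencing libraries of a study of bird skin appendages. The labels name these 4 libraries: 2 biological replicates of chicken feather tract epidermis, at Hamburger and Hamilton stage 33 to 34, and 2 of chicken reticulate scale tract epidermis, at stage 39. Hamburger and Hamilton stages are a numbered series of external landmarks by which bird embryos are ordered. Of the 6 pairs of chicken appendages this one is the furthest apart in stage, so the kind of appendage, the place on the body and the age of the embryo cannot be told apart. The other libraries came from chicken scutate scale (stage 37) and chicken claw (stage 36), with 2 replicates each, and from emu. The emu libraries whose differences are set beside the chicken ones below are 2 of feather (stage 33 to 34) and 1 of reticulate scale (stage 39). Emu scutate scale (stage 37, 2 libraries) and emu claw (stage 36, 1 library) entered the fit and are cited for some genes.

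Chicken eggs were kept at 37.8 °C and emu eggs at 35.5 °C, and no embryo was treated. Epidermis was separated from the underlying dermis with the protease dispase (10 mg/mL, 13 h at 4 °C) before RNA extraction and sequencing of polyadenylated RNA. The labels give no strain, no sex and no sequencing batch for any embryo. These are whole epidermal sheets, so for every value below a smaller number of cells of some type and less RNA in each cell cannot be told apart.

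As background, feathers and scales both start as patches of embryonic epidermis that respond to signals exchanged with the dermis. In the feather tracts the epidermis thickens locally into a placode, which grows out as a bud and later folds into the branched feather. Reticulate scales are the small, radially symmetric bumps that cover the sole of the bird foot, and they appear later in development than feather buds. As epidermis matures, basal cells stop dividing, move outward and fill with structural proteins of the horny layer.

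Genes are given by their Ensembl chicken gene IDs, because 0 of the 8751 listed IDs matched the gene table at hand and the data carry no gene names. For that reason no role is given for any ID, and the labelled tissues were not checked against marker genes here. Expression is given as TPM, a relative abundance of transcripts that is corrected for their length. Differences are given on the scale log2(TPM + 1), on which changes between low levels look smaller than they are. The test covered the 6864 genes that reached 1 TPM in 2 or more of the 4 chicken libraries, and a call means a limma adjusted p under 0.05.

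The listed TPM summed to 539494 and 575133 in the feather libraries and to 537026 and 566014 in the reticulate scale libraries. Each library had from 701 to 862 genes at 0. Sequencing depth is unknown, since TPM does not keep it. Feather replicates were closer to each other than reticulate scale replicates. Over the tested genes, replicates differed on the log2 scale with an SD of 0.28 in feather and 0.38 in reticulate scale, and 72 against 172 genes were at least 2-fold apart within the pair. No gene had identical nonzero values in both replicates of a pair (0 in feather, 0 in reticulate scale).

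One feature of the replicates stood apart from the appendages. ENSGALG00000005785 had a TPM of 72.5 in feather replicate 1 and 1.22 in feather replicate 2. In reticulate scale the same gene had 64.5 in replicate 1 and 1.32 in replicate 2. ENSGALG00000010056 had 18.9 in feather replicate 1 and 25.8 in reticulate scale replicate 1, and it was listed at 0 in both second replicates. The chicken scutate scale and claw pairs also held 1 library with these genes and 1 nearly without them. Over the 8751 listed genes, 40 differed by more than 0.7 on the log2 scale between the replicates of all 4 chicken groups. Of these, 30 were lower in the library of each pair that had ENSGALG00000005785, 4 were higher in it, and 6 followed other arrangements of the libraries. The 4 include ENSGALG00000005785 itself, by definition. The median ratio of those 30 genes between replicate 2 and replicate 1 was 1.96 in feather and 1.98 in reticulate scale. Each side of the comparison held 1 library of either kind. None of the 34 genes was called between the appendages (0 of 30 and 0 of 4, where 31.3% of all tested genes were), but they were chosen for a large spread between replicates, which enters the error of that test, so nothing is read from this count. Whether the sex of the embryos goes with this split was not tested.

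**Figure D1:**
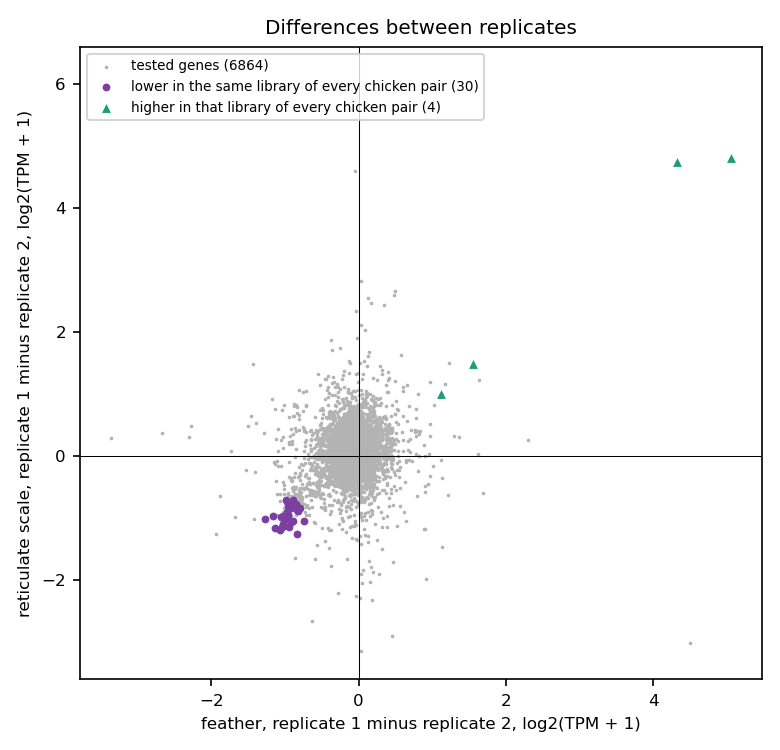
Difference between replicate 1 and replicate 2 in log2(TPM + 1), for chicken feather (x axis) and chicken reticulate scale (y axis), with 1 point for each of the 6864 tested genes. Purple points (30 genes) lie near -1 on both axes, and green triangles (4 genes) lie above 0 on both, including the pair of genes that was present in the first replicates and nearly absent from the second.

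The epidermis of the appendages differed in many genes of all levels. Limma called 2149 of the 6864 genes (31.3%). Of these, 752 (11% of those tested) were higher in reticulate scale and 1397 (20.4%) were higher in feather. The median standard error of a log2 difference was 0.18, and 1311 of the called differences were smaller than 2-fold. At 2-fold or more, 334 called genes (4.87%) were higher in reticulate scale and 504 (7.34%) in feather. The tails were of similar length in both directions: 115 and 157 genes were at least 4-fold apart, 39 and 49 at least 8-fold, and 14 and 15 at least 16-fold, in each case with the reticulate scale count first.

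The balance of the directions moved with the scaling of the libraries. The median gene lay at -0.10 on the log2 scale, on the feather side, and at -0.02 after median-ratio rescaling. As deposited, 65.0% of the calls were higher in feather. After median-ratio rescaling the calls split into 955 higher in reticulate scale and 1077 higher in feather (53.0%), and after quantile normalization 52.2% were higher in feather. At 2-fold or more, the 334 and 504 calls became 376 higher in reticulate scale and 452 higher in feather after median-ratio rescaling, and 394 and 428 after quantile normalization. Relative to the median gene, then, the calls were close to evenly divided. The count of calls also rested on having both replicates. It was 1120 without feather replicate 1, 977 without feather replicate 2, 1217 without reticulate scale replicate 1 and 1517 without reticulate scale replicate 2, and of these 1106, 966, 1165 and 1400 were among the 2149.

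**Figure D2:**
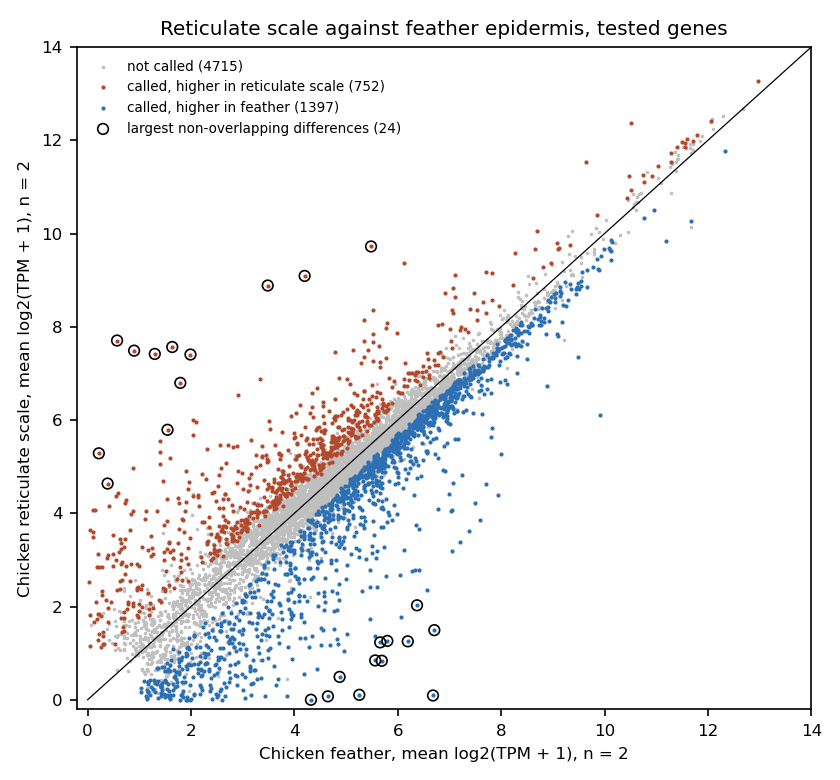
Mean log2(TPM + 1) of each of the 6864 tested genes in chicken feather (x axis, n = 2) and chicken reticulate scale (y axis, n = 2), with the line of equal expression. The 752 genes called higher in reticulate scale are red and the 1397 called higher in feather are blue. Black circles mark the 12 largest non-overlapping differences in each direction. Most circled genes lie at low levels on one axis and at intermediate to high levels on the other. An exception is ENSGALG00000003506, at 48.3 and 39.6 TPM in feather.

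Genes at all levels were among the calls. Of the 946 tested genes with a mean under 5 TPM over the 4 libraries, 337 were called, 95 higher in reticulate scale and 242 higher in feather. Between 5 and 20 TPM, 500 of 1850 were called, and there the directions were nearly balanced, at 239 and 261. Between 20 and 100 TPM it was 919 of 3156, with 319 and 600. Above 100 TPM, 393 of 912 genes were called, the largest share of the 4 classes at 43.1%, with 99 higher in reticulate scale and 294 higher in feather. The share was 35.6% under 5 TPM, 27.0% between 5 and 20 TPM and 29.1% between 20 and 100 TPM. The median SE fell with the level, from 0.29 in the lowest class to 0.12 in the highest. Whether the SE goes with the shares was not tested. These counts are for the values as deposited, and the split by level was not computed after rescaling.

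The genes with the highest mean TPM over the 4 libraries were at similar levels in both appendages. Ranking by that mean favours genes that are high on both sides, so this is a description. Of the 20 genes with the highest mean TPM, 7 were called higher in reticulate scale and 1 higher in feather. Over all tested genes these shares were 11% and 20.4%, and 43.1% of the genes above 100 TPM were called in either direction. Whether the 20 genes differ from these shares was not tested. The log2 differences of the 20 genes ran only from -0.55 to 0.45. None of the 20 was 2-fold apart (0 genes). Outside these 20, ENSGALG00000009641 had 1360 and 1549 TPM in feather and 4450 and 6331 TPM in reticulate scale. The top 20 genes of a library took up 14.8% and 15.1% of the listed TPM in feather and 16.8% and 18.9% in reticulate scale. All genes called higher in reticulate scale together made up 13.8% and 13.5% of the listed TPM in feather, against 22.8% and 22.3% in reticulate scale. The genes called higher in feather made up 26.2% and 25.8% in feather and 16.4% and 16.3% in reticulate scale. Those genes were chosen on the same difference, so the shares describe their weight in the transcriptome and test nothing.

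Genes higher in reticulate scale are described first. The 12 genes with the largest differences, among called genes without overlap between the groups and with at least 10 TPM on the higher side, ran from 18.6 to 1632 TPM in the reticulate scale libraries and from 0.12 to 48.3 TPM in feather. Non-overlap alone was common, with 1971 tested genes (28.7%) higher in both reticulate scale libraries than in either feather library and 3076 (44.8%) the other way round, 73.5% of all tested genes together. The largest difference belonged to ENSGALG00000014505, with a TPM of 0.522 and 0.447 in feather and 175 and 246 in reticulate scale. Its log2 difference was 7.14 (SE 0.99, limma adjusted p 1.04e-03). This gene was thus under 1 TPM in feather and above 100 TPM in reticulate scale. Its SE was the highest of the 12, however, and the scutate scale libraries disagreed on it, at 3.99 and 66.0 TPM.

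ENSGALG00000009415 had 0.809 and 0.922 TPM in feather and 175 and 182 TPM in reticulate scale, a log2 difference of 6.59 (SE 0.52, limma adjusted p 8.53e-05). ENSGALG00000007257 had 1.49 and 1.43 TPM in feather against 190 and 152 TPM in reticulate scale, a log2 difference of 6.12 (SE 0.22, limma adjusted p 1.70e-06). The replicates of both genes were close together on each side. The genes differed in the other chicken appendages: ENSGALG00000007257 was at 119 and 154 TPM in scutate scale, while ENSGALG00000009415 was at 11.7 and 25.7 TPM there. In claw, ENSGALG00000007257 had 40.2 and 45.3 TPM and ENSGALG00000009415 had 0.642 and 4.90 TPM.

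ENSGALG00000010923 was at 2.16 and 2.06 TPM in feather and 235 and 151 TPM in reticulate scale, a log2 difference of 5.93 (SE 0.28, limma adjusted p 4.47e-06). Its claw libraries stood above those of reticulate scale, at 631 and 490 TPM. ENSGALG00000016153 was at 2.82 and 3.13 TPM in feather and 151 and 188 TPM in reticulate scale. The log2 difference of this gene was 5.41 (SE 0.43, limma adjusted p 8.29e-05). Here claw lay between feather and reticulate scale, at 23.4 and 20.8 TPM, and so did scutate scale, at 37.3 and 67.6 TPM. ENSGALG00000015148 had 2.38 and 2.55 TPM in feather, 108 and 112 TPM in reticulate scale, and only 0.993 and 6.72 TPM in scutate scale. Its log2 difference was 5.003 (SE 0.51, limma adjusted p 2.66e-04).

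The replicates of reticulate scale were less alike for several of the others. ENSGALG00000003506 had 48.3 and 39.6 TPM in feather but 436 and 1632 TPM in reticulate scale, so the latter pair was 3.74-fold apart; its log2 difference was 4.24 (SE 0.49, limma adjusted p 4.45e-04). ENSGALG00000019430 was at 0.208 and 0.118 TPM in feather and at 63.4 and 22.6 TPM in reticulate scale, with 690 TPM in claw replicate 2 and 84.7 TPM in claw replicate 1. ENSGALG00000012420 had 9.58 and 10.8 TPM in feather and 642 and 346 TPM in reticulate scale. By contrast ENSGALG00000005442 was nearly constant within each pair, at 1.90 and 1.94 TPM in feather and 54.3 and 54.4 TPM in reticulate scale. Of the remaining members of the 12, ENSGALG00000010657 had 12.8 and 23.3 TPM in feather and 433 and 683 TPM in reticulate scale, and ENSGALG00000015910 had 0.304 and 0.311 against 30.7 and 18.6 TPM. The largest limma adjusted p among the 12 was 2.23e-03, and the smallest log2 difference was 4.24, against 4.14 for the next gene in order.

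**Figure D3:**
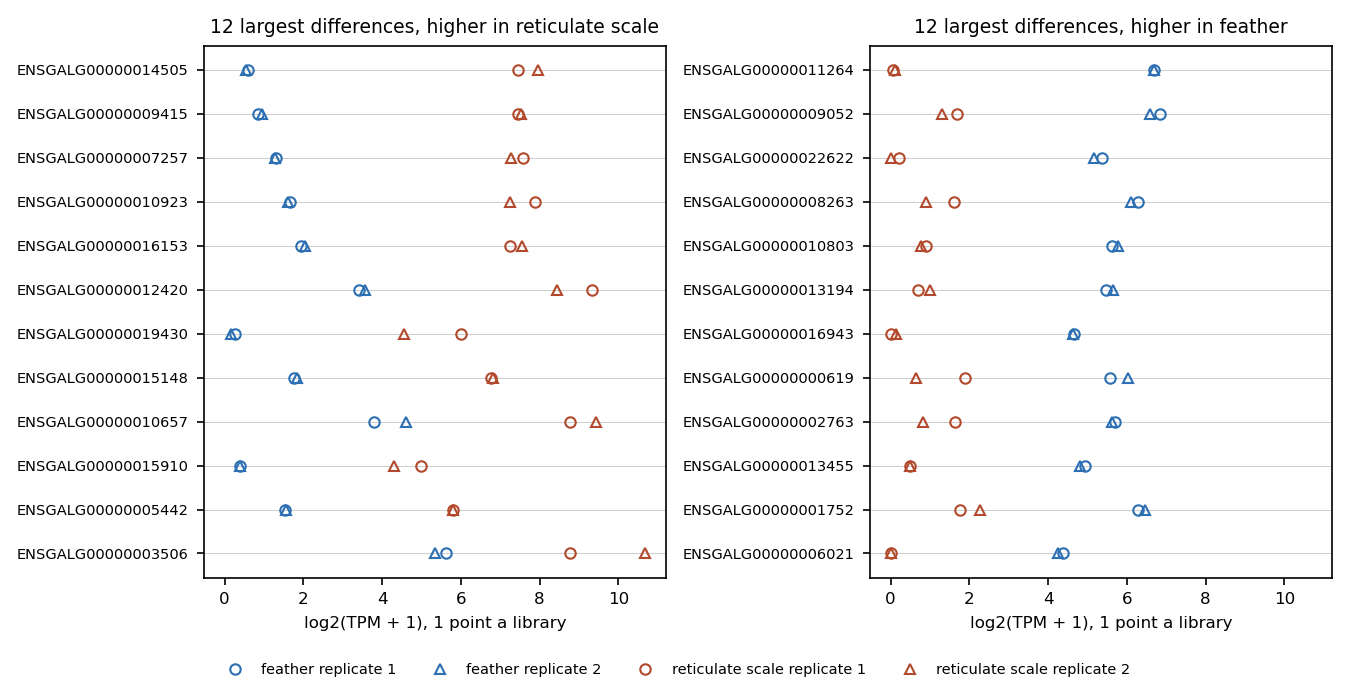
log2(TPM + 1) in each of the 4 chicken libraries (blue, feather; red, reticulate scale; circle, replicate 1; triangle, replicate 2) for the 12 genes with the largest differences in either direction. The appendages are separated for every gene shown, which is how the genes were chosen, while the distance between the replicates varies, with ENSGALG00000003506 and ENSGALG00000019430 spread most in reticulate scale.

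Among the 12 largest differences in each direction, genes higher in feather reached lower levels than the reticulate scale genes above. The feather replicates of these genes were more even than the reticulate scale replicates of the genes above, as over all tested genes. The corresponding 12 genes ran from 18.03 to 112.9 TPM in the feather libraries and from 0 to 3.86 TPM in the reticulate scale libraries, and in none of them (0 genes) were the feather replicates 2-fold apart. ENSGALG00000011264 had the largest difference: 102 and 101 TPM in feather against 0.0468 and 0.0848 TPM in reticulate scale, a log2 difference of -6.59 (SE 0.46, limma adjusted p 4.27e-05). ENSGALG00000009052 had 112.9 and 94.8 TPM in feather and 2.20 and 1.48 TPM in reticulate scale, a log2 difference of -5.21 (SE 0.38, limma adjusted p 5.45e-05). ENSGALG00000008263 had 76.8 and 67.8 TPM in feather and 2.04 and 0.868 TPM in reticulate scale, a log2 difference of -4.94 (SE 0.25, limma adjusted p 6.74e-06). All 3 were also low in scutate scale, with at most 9.82 TPM in any library, and claw reached 15.1 TPM for ENSGALG00000009052.

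A few of these genes were low in every chicken appendage except feather. ENSGALG00000016943 was at 24.3 and 23.9 TPM in feather, listed at 0 and at 0.107 TPM in reticulate scale, and at no more than 0.238 TPM in scutate scale and claw. Its log2 difference was -4.57 (SE 0.18, limma adjusted p 2.56e-06). ENSGALG00000006021 was at 19.96 and 18.03 TPM in feather, at 0 in reticulate scale replicates 1 and 2, and between 0.167 and 0.508 TPM in scutate scale and claw. ENSGALG00000013455 had 29.6 and 27.1 TPM in feather, 0.412 and 0.398 TPM in reticulate scale and 3.36 and 2.21 TPM in scutate scale. For genes this low on one side the pseudocount sets the size of the log2 difference.

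Other feather genes were also present in scutate scale or claw. ENSGALG00000010803 had 48.0 and 53.4 TPM in feather and 0.855 and 0.719 TPM in reticulate scale, but 37.0 and 9.68 TPM in scutate scale. ENSGALG00000002763 had 51.0 and 48.2 TPM in feather, 2.12 and 0.767 TPM in reticulate scale, and more in claw than in feather, at 128 and 207 TPM. ENSGALG00000000619 had 46.5 and 64.2 TPM in feather and 2.70 and 0.555 TPM in reticulate scale, with claw between them at 30.6 and 15.5 TPM. The rest of the 12 were ENSGALG00000013194, at 43.5 and 49.2 TPM in feather and 0.611 and 0.998 TPM in reticulate scale, ENSGALG00000022622, at 40.0 and 34.6 TPM in feather and 0.158 TPM or listed at 0 in reticulate scale, and ENSGALG00000001752, at 77.4 and 86.5 TPM in feather and 2.42 and 3.86 TPM in reticulate scale. The largest limma adjusted p among the 12 was 2.71e-03, and the smallest difference was 4.32 log2 units in size, against a value of -4.28 for the next gene in order.

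The level in scutate scale, which was sampled at an intermediate stage, was set beside these 24 genes. The mean of the scutate scale pair lay between the feather and the reticulate scale means for 12 of 12 genes in both directions. Both scutate scale libraries lay between the groups for 12 of the 12 feather genes and for 9 of the 12 reticulate scale genes. Between refers to order only, and some values lay close to the lower group. ENSGALG00000016943 had 0.238 and 0.195 TPM in scutate scale against 0 and 0.107 TPM in reticulate scale. For ENSGALG00000006021 it was 0.355 and 0.508 TPM against 0 in both. ENSGALG00000010803, at 37.0 and 9.68 TPM in scutate scale, lay further from its lower group. Scutate scale replicates were at least 2-fold apart for 7 of the reticulate scale genes and 5 of the feather genes. Claw, from stage 36, was less regular: its mean lay between for 8 of 12 genes in each direction, and it exceeded the higher group for 2 reticulate scale genes and 1 feather gene. The genes were chosen for being far apart at the ends, which favours intermediate values elsewhere, so these counts are a description.

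**Figure D4:**
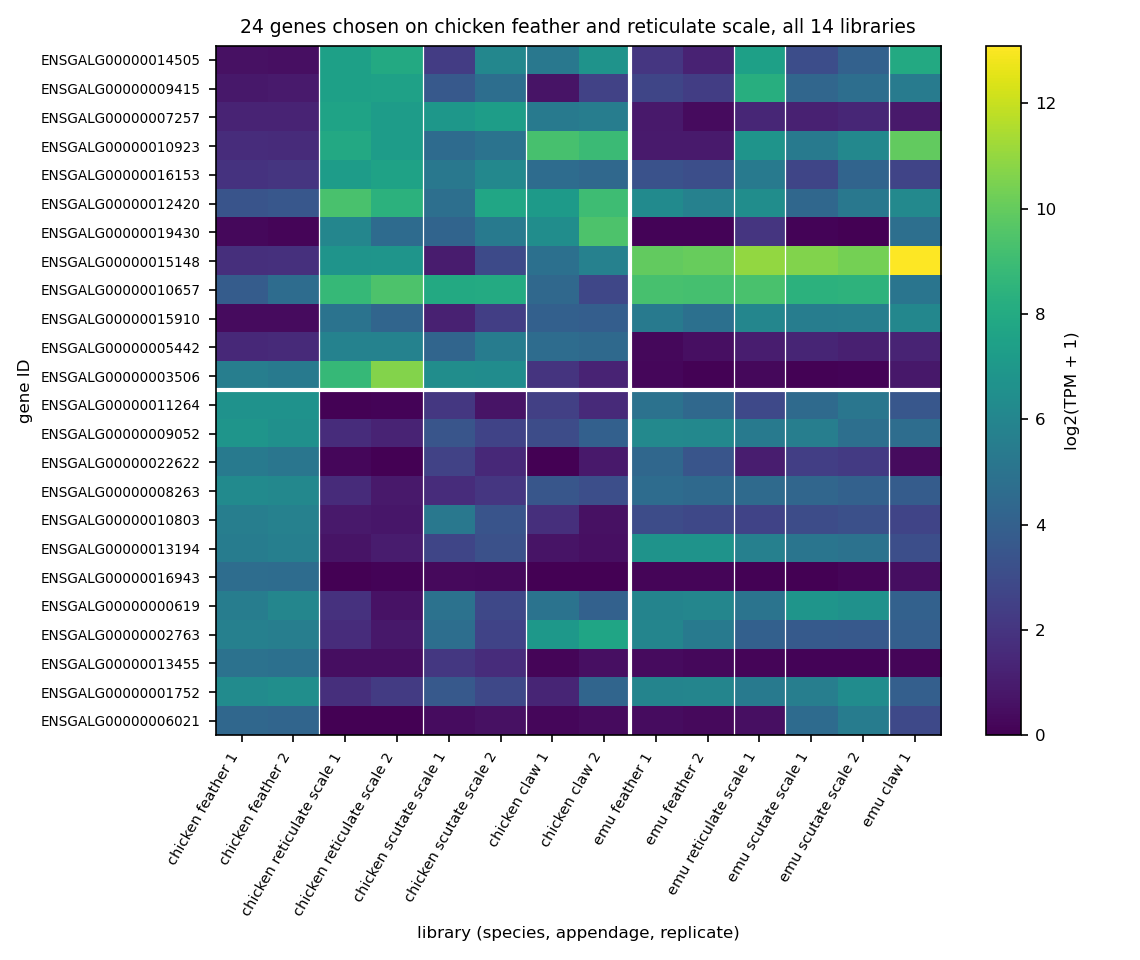
Colour shows log2(TPM + 1) for the 12 genes with the largest differences toward reticulate scale (upper block) and the 12 toward feather (lower block) in all 14 libraries, chicken to the left of the thick line and emu to the right. In chicken, scutate scale has intermediate colours for some genes and lies close to the lower group for others, while claw varies by gene. Several genes of both blocks are uniformly high or uniformly low across the emu libraries.

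Few genes were nearly absent from one appendage and clearly present in the other. With at least 10 TPM in both libraries of one appendage and under 1 TPM in both of the other, there were 12 genes present in reticulate scale and 14 present in feather, thresholds that were chosen after the data were seen. Of these, 12 and 13 were called, where 31.3% of all tested genes were. The thresholds pick a wide gap between the same libraries, which favours a call, so nothing is read from the calls. Leaving out a library removes a condition, so both counts can only rise, and nothing is read from a rise. They rose most for the reticulate scale replicates, to 21 and 21 without replicate 2 and to 18 and 18 without replicate 1. The reticulate scale set held 4 of the 12 genes described above, among them ENSGALG00000014505 and ENSGALG00000009415, and 8 others at lower levels. ENSGALG00000002790 had 0.109 and 0.0497 TPM in feather and 17.8 and 13.95 TPM in reticulate scale. ENSGALG00000012117 had 0.760 and 0.589 against 24.2 and 13.95 TPM, and at most 0.966 TPM in scutate scale or claw, so among the chicken libraries it was above 1 TPM in reticulate scale alone. ENSGALG00000006729 had 0.712 and 0.880 against 15.3 and 14.3 TPM and was also low in claw, at 0.342 and 0.029 TPM. ENSGALG00000024464 had 0.492 and 0.421 against 21.6 and 17.8 TPM, but its claw libraries were far apart, at 5.28 and 237 TPM. The other 4 were ENSGALG00000002234, ENSGALG00000007392, ENSGALG00000014144 and ENSGALG00000015575, with 11.3 to 26.6 TPM in reticulate scale. The feather set held 7 of the 12 feather genes described above and 7 others at 10.8 to 23.8 TPM in feather. Of these, ENSGALG00000011940 had 11.4 and 15.7 TPM in feather, 0.126 TPM and 0 in reticulate scale and 0.123 and 9.12 TPM in claw. ENSGALG00000022811 had 11.1 and 11.3 TPM in feather, 0.424 and 0.922 TPM in reticulate scale and from 1.45 to 2.30 TPM in scutate scale and claw. The gene of the feather set that was not called, ENSGALG00000001892, had 10.8 and 16.8 TPM in feather and 0.697 and 0.0947 TPM in reticulate scale (limma adjusted p 9.30e-02), and its claw libraries were far apart, at 0.255 and 68.8 TPM.

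Among abundant genes the differences were smaller in fold and larger in TPM. ENSGALG00000009641 had 1360 and 1549 TPM in feather and 4450 and 6331 TPM in reticulate scale, a log2 difference of 1.87 (SE 0.37, limma adjusted p 5.31e-03), and 197 and 528 TPM in claw. ENSGALG00000003770 had 723 and 872 TPM in feather and 3006 and 2930 TPM in reticulate scale, a log2 difference of 1.90 (SE 0.18, limma adjusted p 1.74e-04). ENSGALG00000007280 had 402 and 425 TPM in feather and 1178 and 949 TPM in reticulate scale, a log2 difference of 1.35 (SE 0.15, limma adjusted p 3.28e-04). In each of these 3 genes both reticulate scale libraries lay well above both feather libraries. Both claw libraries also lay above feather for ENSGALG00000003770, at 2972 and 2011 TPM, and for ENSGALG00000007280, at 1117 and 1008 TPM.

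On the feather side the abundant calls were less secure. ENSGALG00000016584 had 978 and 945 TPM in feather and 33.0 and 140 TPM in reticulate scale, a log2 difference of -3.80 (SE 1.10, limma adjusted p 2.77e-02), with an adjusted p of 7.06e-02 in a fit of only the chicken libraries. The claw libraries were far apart on this gene, at 2.89 and 67.3 TPM, and their spread enters the error of both fits. ENSGALG00000008367 had 3335 and 3158 TPM in feather and 957 and 1597 TPM in reticulate scale, a log2 difference of -1.39 (SE 0.42, limma adjusted p 3.25e-02). ENSGALG00000000236 had 1676 and 3215 TPM in feather and 629 and 1347 TPM in reticulate scale, a log2 difference of -1.33 (SE 0.40, limma adjusted p 3.25e-02). The limma adjusted p of the last 2 genes was 6.23e-02 and 5.28e-02 after median-ratio rescaling. In the fit of only the chicken libraries it was 5.61e-02 and 7.67e-02. For ENSGALG00000000236 the limma adjusted p was also 7.35e-02 in a fit of only the 4 compared libraries. The call of each of the 3 was also lost when single libraries were left out, which leaves fewer samples. For ENSGALG00000016584 the adjusted p was 1.06e-01 without feather replicate 1, 1.08e-01 without feather replicate 2 and 1.79e-01 without reticulate scale replicate 1, with log2 differences of -3.77, -3.82 and -2.77. For ENSGALG00000008367 the same omissions gave 1.25e-01, 1.15e-01 and 1.97e-01, with log2 differences of -1.35, -1.43 and -1.02. For ENSGALG00000000236 it was 2.22e-01 without feather replicate 2 and 2.19e-01 without reticulate scale replicate 1, with log2 differences of -0.86 and -0.78.

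The same appendages of emu, a bird of another lineage raised at a lower temperature, showed part of the chicken differences. The emu columns had been scaled to a common total before deposit and the chicken columns had not. Levels are therefore described within each species, and only the differences within each are set side by side. How emu reads were assigned to chicken IDs is not given, so a low emu value and unassigned reads cannot be told apart. Emu reticulate scale is a single library and has no replicate check. Of the 334 genes called at least 2-fold higher in chicken reticulate scale, 238 (71.3%) were also higher in the emu reticulate scale library than in the emu feather mean, where 46.2% of all tested genes were. Of the 334 genes, 109 were at least 2-fold higher in the emu reticulate scale library, and 6 were at least 2-fold lower. Over all tested genes, 452 (6.59%) were at least 2-fold higher in the emu reticulate scale library and 282 (4.11%) at least 2-fold lower. Of the 504 feather genes, 303 (60.1%) were also higher in emu feather, where 51.7% of all tested genes were, with 87 at least 2-fold in the same direction and 44 at least 2-fold in the opposite one. Whether these shares differ between the 2 sets was not tested. The median log2 difference of the 334 genes was 1.69 in chicken and 0.51 in emu. For the 504 genes it was -1.58 in chicken and -0.16 in emu. These genes were chosen on the chicken values, so the medians are a description and not a test of the species. Of these genes, 30 of the 334 and 89 of the 504 genes were under 1 TPM in all 3 emu libraries. The share over all tested genes was not counted, so nothing is read from these counts.

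Whether the difference itself was unequal in the species was tested with the interaction term in limma, the emu difference minus the chicken difference. It was called for 751 of the 6864 genes (10.9%), 483 with a positive and 268 with a negative value. Of the 751, 490 were called in chicken, where 31.3% of all tested genes were. The chicken difference is part of the term, so overlap with the chicken calls is favoured. Nothing is read from that overlap for the 751 genes. The count rested on single libraries: it was 303 without chicken feather replicate 1, 297 without chicken feather replicate 2, 491 without chicken reticulate scale replicate 1, 493 without chicken reticulate scale replicate 2, 330 without emu feather replicate 1 and 289 without emu feather replicate 2. The emu reticulate scale library could not be left out, and its spread was taken to be that of the replicated groups.

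For 3 of the 4 largest reticulate scale differences the emu reticulate scale library was high as well. ENSGALG00000014505 had 3.27 and 1.40 TPM in emu feather and 176 TPM in emu reticulate scale. ENSGALG00000009415 had 5.597 and 4.15 TPM in emu feather and 291 TPM in emu reticulate scale. ENSGALG00000010923 had 0.898 and 0.901 TPM in emu feather and 108 TPM in emu reticulate scale, a log2 difference of 5.85 against 5.93 in chicken. Their interaction terms were -1.34 (SE 1.57, limma adjusted p 6.37e-01), -0.94 (SE 0.83, limma adjusted p 5.18e-01) and -0.08 (SE 0.44, limma adjusted p 9.35e-01). A difference between the species was thus not called for these 3 genes, and the errors of the first 2 were large. For ENSGALG00000009415 it was called in a fit of only the feather and reticulate scale libraries of both species (-0.94, limma adjusted p 3.59e-02).

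The remaining gene of these 4, ENSGALG00000007257, was low in emu feather at 0.845 and 0.295 TPM and also in emu reticulate scale at 1.63 TPM, with an interaction term of -5.35 (SE 0.34, limma adjusted p 1.31e-04). Other chicken reticulate scale genes were high in emu in both appendages. ENSGALG00000010657 had 627 and 591 TPM in emu feather and 635 TPM in emu reticulate scale, and ENSGALG00000015148 had 995, 1072 and 1990 TPM. On the feather side, ENSGALG00000022622 was lower in emu reticulate scale as well, at 1.10 TPM against 19.6 and 10.0 TPM in emu feather. ENSGALG00000006021 was at 0.332 and 0.250 TPM in emu feather and 0.434 TPM in emu reticulate scale, while the emu scutate scale libraries had 23.2 and 44.8 TPM. The feather-restricted ENSGALG00000016943 did not exceed 0.421 TPM in any emu library. In abundant genes, ENSGALG00000016584 had 866 and 809 TPM in emu feather and 14.9 TPM in emu reticulate scale, a log2 difference of -5.72 against -3.80 in chicken (interaction -1.92, SE 1.73, limma adjusted p 5.30e-01).

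**Figure D5:**
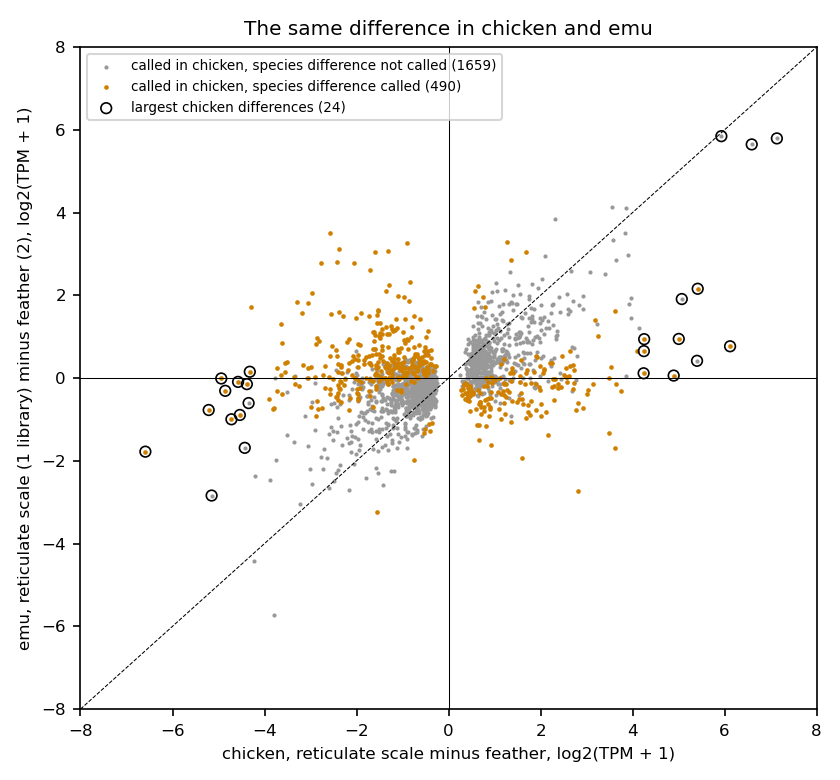
Reticulate scale minus feather difference in log2(TPM + 1) for the 2149 genes called in chicken, with chicken on the x axis (2 libraries against 2) and emu on the y axis (1 library against 2). The dashed line marks equal differences, orange points are the 490 genes for which the difference between the species was called, and of the circled 24 genes 3 lie near the upper end of the dashed line while most lie within 1 log2 unit of 0 in emu.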

How the data were processed

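The authors deposited one table of 8751 genes by 14 samples. No header states the unit. The deposited scores were read as square roots of TPM, because the squares sum to the same total in every emu column, scaled so per the column names, and to similar totals in chicken, and were squared. CASAVA, TopHat2 2.0.6 and HTSeq 0.5.3p9 are named in the submitters' processing notes; the genome build, the TPM calculation and the assignment of emu reads to chicken IDs are not given in the sources used here. All 14 columns were matched to samples by the code in the titles.

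Genes with at least 1 TPM in at least 2 of the 4 compared samples were fitted as log2(TPM + 1) with limma 3.58.1 in R 4.3.3 (lmFit, eBayes with a trend), as 8 group means over all 14 samples with 6 residual degrees of freedom. Calls were made at 0.05 after Benjamini-Hochberg adjustment over 6864 genes. Depth is unknown, so no counting error was computed. On simulated data with a log2 change of 1.5, the code recovered 175 of 200 changed genes in the chicken contrast, with 6.42% false calls. In the interaction it recovered 130 of 200, with 4.41%. The simulated noise was normal and independent, with 1 spread per gene in all groups and no other group differences. These rates check the code and need not hold for the real data.

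Named genes were, in each direction, the 12 largest called differences without overlap and with a mean of at least 10 TPM on the higher side, and the 3 most abundant called genes at least 2-fold apart. Other IDs were chosen after their values were seen. Gene lists by symbol were drawn up but could not be used, as 0 IDs matched the RefSeq table of assembly GRCg7b. The members and rules were chosen with earlier results of these data known. Alternatives were other pseudocounts, filters, scalings, models and left-out replicates. Python 3.11.15, numpy 2.4.6, pandas 2.3.3 and matplotlib 3.10.9 were used.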

Additional observations from a re-analysis of the deposited data

Results flagged for a closer look

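In limma, the interaction of species with the reticulate scale minus feather difference was called for 751 genes (10.9% of those tested). It was called for 18 of the 30 genes named, 14 of them under every alternative tried. These genes were chosen for large chicken differences, and the same chicken values enter the interaction, so a term of opposite sign is favoured by the choice and the count is a description. Each value below is the emu log2 difference minus the chicken one, with the spread of the single emu reticulate scale library taken from the other groups.

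Only named genes with a called term are listed here. Of those higher in chicken reticulate scale, 8 had a smaller difference in emu. The term was -5.35 for ENSGALG00000007257 and -3.59 for ENSGALG00000005442, which were under 2 TPM in the emu feather and reticulate scale libraries. For ENSGALG00000003506 it was -4.12, with less than 1 TPM in every emu library. It was -4.83 for ENSGALG00000010657, -4.06 for ENSGALG00000015148 and -3.31 for ENSGALG00000015910, which were above 25 TPM in emu feather and emu reticulate scale alike. ENSGALG00000016153 gave -3.26 and the abundant ENSGALG00000003770 gave -1.37. In ENSGALG00000007280 the difference was larger in emu, by 1.497, with 67.7 and 65.0 TPM in emu feather and 485 TPM in emu reticulate scale.

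Of the named genes higher in chicken feather, 9 had a called term, and each of these terms was above 0. The largest were 4.93 for ENSGALG00000008263 and 4.81 for ENSGALG00000011264. The term was 4.55 for ENSGALG00000010803, 4.44 for ENSGALG00000009052, 3.72 for ENSGALG00000013194 and 3.64 for ENSGALG00000000619. ENSGALG00000016943 gave 4.48, ENSGALG00000006021 gave 4.47 and ENSGALG00000013455 gave 4.24, and these 3 were under 1 TPM in the emu feather and reticulate scale libraries.

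The call was lost under some alternatives for 4 of these genes. For ENSGALG00000000619 the limma adjusted p was 4.59e-02. It was 0.050, just over the threshold, with the replicate number as a block, 5.09e-02 after median-ratio rescaling and 5.19e-02 with a pseudocount of 0.1. With all genes above 0 it was 5.58e-02, and without an intensity trend it was 5.72e-02. Without single libraries the term ran from 3.02 to 4.27, and the call was kept only without chicken reticulate scale replicate 1. ENSGALG00000003770 had 6.20e-02 without chicken feather replicate 1 and 5.73e-02 without either emu feather replicate. ENSGALG00000015148 had 5.12e-02 without chicken feather replicate 1 and 5.38e-02 without emu feather replicate 2. For ENSGALG00000016153 it was 5.39e-02 to 5.88e-02 without any one of 5 libraries. In the other direction, ENSGALG00000012420, ENSGALG00000019430, ENSGALG00000009415, ENSGALG00000022622, ENSGALG00000001752 and ENSGALG00000002763 were not called but had a limma adjusted p of 1.01e-03 to 3.59e-02 in the fit of only the feather and reticulate scale libraries of both species. Without the chicken claw libraries, ENSGALG00000012420, ENSGALG00000019430, ENSGALG00000022622 and ENSGALG00000001752 were called as well. ENSGALG00000012420 and ENSGALG00000022622 were also called after quantile normalization. ENSGALG00000012420 was called after median-ratio rescaling and after scaling to a common total too.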

How the results depend on the processing

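The 2149 calls became 838 (334 higher in reticulate scale, 504 in feather) when a log2 difference of at least 1 was also required, by construction. With 1 replicate left out, they ranged from 977 to 1517, with 353 to 643 higher in reticulate scale and 606 to 874 in feather, and the interaction calls ranged from 289 to 493; these fits have fewer samples. The 751 interaction calls became 1254 without the chicken claw libraries and 1456 in a fit of only the feather and reticulate scale libraries of both species; the cause was not tested. The other settings gave 1512 to 2793 calls. With the replicate number as a block there were 2023 calls, 1981 of them among the 2149, and 581 interaction calls. Deviations of same-numbered feather and reticulate scale libraries correlated at 0.20 across genes, and at 0.11 without the 34 genes that split the replicates of every chicken group; with 2 pairs the numbers were not taken to pair the samples. Of 480 recomputed log2 differences of the 30 named genes, 466 kept direction and call, 14 lost the call (all from the 3 abundant feather genes) and 0 reversed. The counts for gene lists were not run, because no ID could be paired with a symbol. What limits these results is 2 libraries per group, 1 emu reticulate scale library, an unknown depth and a stage that differs with the appendage.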

Other observations

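The 4 genes that were higher in the same library of every chicken pair were chosen after their values were seen. ENSGALG00000005785 had 59.4 TPM in scutate scale replicate 2 and 56.0 TPM in claw replicate 1, against 1.80 TPM in scutate scale replicate 1 and 0.0672 TPM in claw replicate 2. ENSGALG00000010056 had 29.7 and 8.82 TPM in the same first 2 libraries and was listed at 0 in the others of these pairs. In emu both genes were present in all 6 libraries. ENSGALG00000015877 and ENSGALG00000024278 followed the same arrangement with smaller ratios, at 9.48 against 3.82 TPM and 2.80 against 0.290 TPM in feather.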
